A study of Mus musculus with 12 samples.

Results

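The expression of 9 genes that encode ligands of the bone morphogenetic protein (BMP) family or the secreted proteins that block them was followed in primary cultures of the enteric nervous system (ENS). The ligand genes were Bmp2, Bmp4, Bmp5, Bmp7 and Gdf10, and the antagonist genes were Grem1, Nog, Chrdl1 and Fst. Members were taken by gene symbol, 1 transcript cluster each, out of 22206 transcript clusters on the array. All 9 had a mean above a log2 value of 5.78, the 90th percentile of 1452 chemosensory receptor clusters, which are silent in most tissues. Grem1 and Gdf10 were chosen by their measured changes with lipopolysaccharide (LPS). Which of the LPS comparisons was used to choose them is not stated, so all their LPS changes are descriptions without a test.
Cells from the gut of mouse embryos (e14.5 in the labels, a wider span that ends there in the methods) of the Sox10flox line, a modification the study describes as not relevant, were grown as mixed cultures that held neurons and glia among other cells. Of 12 Clariom S arrays of total RNA, 3 were of LPS + 6-MP cultures (16 h of 6-mercaptopurine at 50 µM, then 6 h of LPS, 10 ng/ml), 3 of LPS cultures (6 h, 10 ng/ml), 3 of 6-MP cultures (16 h, 50 µM) and 3 of untreated controls. 6-MP is a thiopurine used against inflammatory bowel disease, and LPS is a bacterial cell wall component that triggers inflammation. The methods give 3 independent experiments, and p-values measure the spread between the 3 arrays of a group. Precision is limited by that number and by a split between arrays, described below, that the main fit leaves in the spread.
BMP ligands are secreted dimers that bind type I and type II receptor kinases, which phosphorylate SMAD1, SMAD5 and SMAD9, and these enter the nucleus with SMAD4 and induce targets such as the Id genes. Noggin, gremlin 1, chordin-like 1 and follistatin bind ligands outside the cell and keep them from their receptors. In the developing gut, Bmp2 and Bmp4 act on the differentiation of enteric neurons and glia, and mesenchymal and muscle cells supply several of the ligands and antagonists.
Neuronal, smooth muscle, mesenchymal, macrophage and epithelial markers were all well above 5.78, and of 5 glial markers Erbb3 (group means of 9.17 to 9.83), Fabp7 (8.33 to 10.65) and Gfap (6.45 to 6.70) lay above it and Sox10 and S100b under it. On principal component 2, LPS + 6-MP 1, LPS 2, 6-MP 1 and control 2 had scores of 33.2 to 48.2, against -32.5 to -8.16 on the remaining 8 arrays, and are called here the 4 arrays that stand apart. The cultures answered to LPS in a list of 10 interferon-stimulated genes, of which 9 were found by symbol. All 9 were called higher in the mean of both LPS comparisons (1.86% of all clusters), with a median log2 change of 4.18. In LPS minus control 7 of the 9 were called higher (1.51% of all clusters), and in LPS + 6-MP minus 6-MP 6 (1.31%).

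None of the 9 genes was called in limma in any comparison in which it was tested, and at an unadjusted p under 0.05 with any fold 1 of them, Fst, passed in 1 comparison. All 5 ligand genes were below 0 with LPS, both in the presence and in the absence of 6-MP, while among antagonists Grem1 and Fst were above 0 and Nog and Chrdl1 below 0. Over all clusters 45.5% were above 0 in LPS + 6-MP minus 6-MP and 43.4% in LPS minus control, and Gdf10, 1 of the 5 ligand genes, was chosen for its LPS change. The differences ranged from a log2 change of -1.25 (Gdf10) to 1.16 (Grem1), and for most genes they were smaller than the spread between cultures of 1 group. A call for LPS needed an adjusted p under 0.05 in limma and a fold of at least 2, which 1.6% of all clusters reached in LPS against control, 1.44% in LPS + 6-MP against 6-MP and 2.08% in the mean of both.
The median log2 change of the 9 genes was -0.43 for LPS minus control and -0.22 for LPS + 6-MP minus 6-MP, beside -0.04 and -0.03 over all clusters. These medians include Grem1 and Gdf10, which the choice of genes placed at the extremes.

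**Figure D1:**
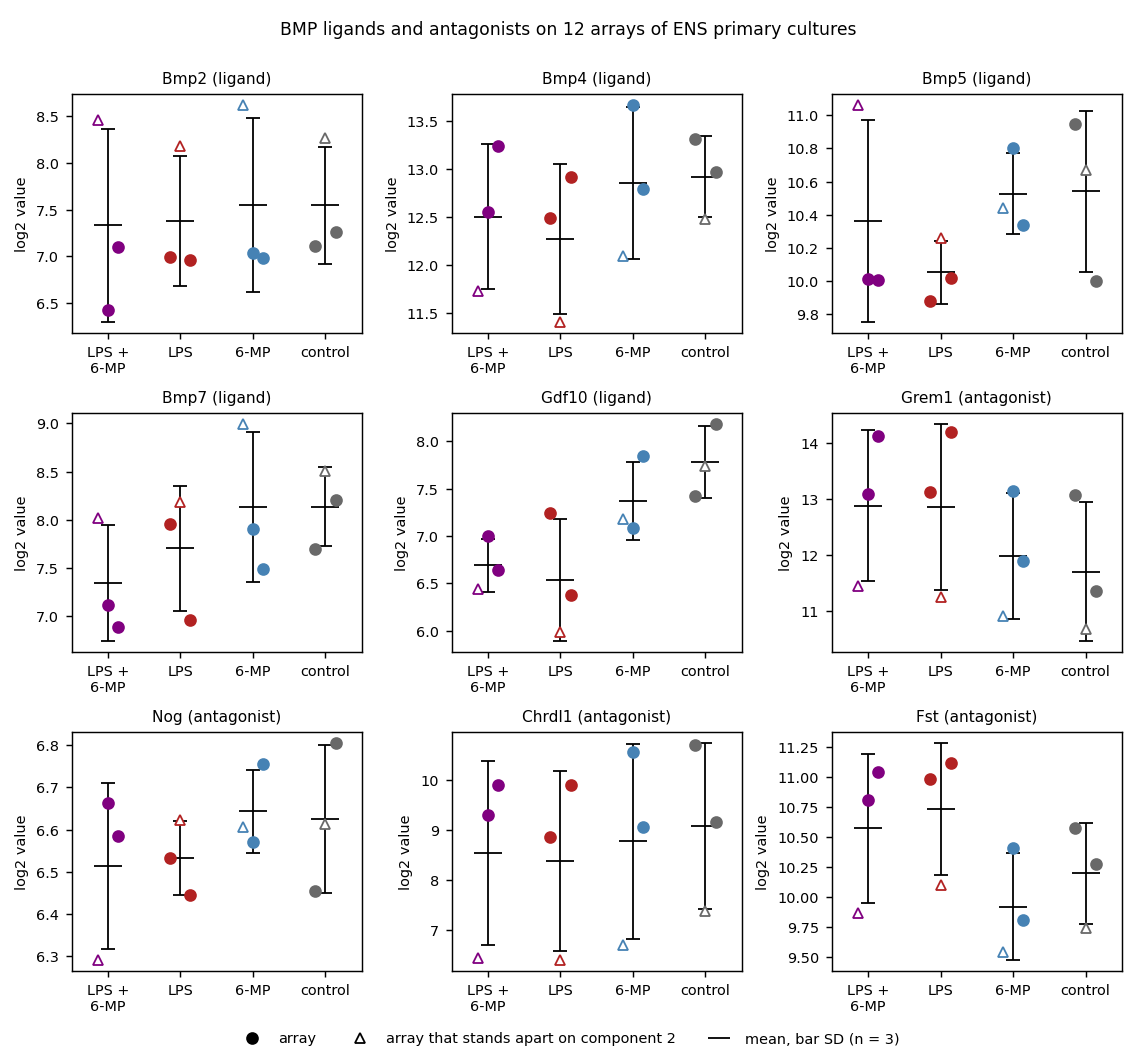
Log2 value (vertical axis, a scale of its own in each panel) of the 5 ligand and 4 antagonist genes on the 12 arrays, by group (horizontal axis). Each point is an array, open triangles are the 4 arrays that stand apart on component 2, and lines give the mean and SD of 3 arrays. In Gdf10 every LPS array (5.99 to 7.25) lay under every control array (7.42 to 8.18), and in Bmp2 and Chrdl1 the triangles lay apart from the other 8 arrays.

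Gdf10, which encodes a ligand related to BMP3, had the most negative change of the 9 genes in LPS minus control. Its log2 values were 6.44, 7.00 and 6.64 in LPS + 6-MP arrays and 7.25, 5.99 and 6.38 in LPS arrays, against 7.18, 7.08 and 7.84 in 6-MP arrays and 7.42, 7.74 and 8.18 in control arrays. Every LPS array lay under every control array, and every LPS + 6-MP array lay under every 6-MP array, in the second case by a margin of less than 0.1.
Gdf10 averaged 6.54 ± 0.64 in LPS arrays and 7.78 ± 0.38 in control arrays (SD, n = 3 each), which is 2.37-fold lower (log2 change -1.25, SE 0.33). It averaged 6.69 ± 0.28 in LPS + 6-MP arrays and 7.37 ± 0.41 in 6-MP arrays, a log2 change of -0.68 (95% interval -1.39 to 0.03). No other member separated its groups in either comparison, and over all clusters 8.18% in LPS against control and 7.64% in LPS + 6-MP against 6-MP lay wholly lower in this way. For Gdf10 the separation cannot be read apart from its choice.
Grem1 encodes gremlin 1, a cystine-knot antagonist of Bmp2, Bmp4 and Bmp7 that is made by muscle and fibroblasts around the intestinal crypts. Its values were 11.43, 13.09 and 14.12 in LPS + 6-MP arrays and 13.12, 11.25 and 14.19 in LPS arrays, against 10.90, 13.15 and 11.88 in 6-MP arrays and 13.08, 10.67 and 11.35 in control arrays. The groups overlapped, since 1 array of each LPS group lay near the low values of the groups without LPS. The highest 6-MP array (13.15) and control array (13.08) also lay near the middle arrays of the LPS groups (13.09 in LPS + 6-MP and 13.12 in LPS).
Grem1 averaged 12.85 ± 1.49 in LPS arrays and 11.70 ± 1.24 in control arrays (SD, n = 3 each), a 2.23-fold difference (log2 change 1.16, SE 0.88). In LPS + 6-MP against 6-MP it was 1.87-fold higher (0.90, 95% interval -0.998 to 2.81). The interval of that comparison runs from a fold of 0.501 to a fold of 7.00, on both sides of no change. It describes the spread and is not a test, since Grem1 was chosen for its LPS change.
RefSeq promoters were at hand for 4 of the 9 genes, and the 250 bases before the annotated start are shown for Gdf10 and Grem1, the members chosen for LPS, and for Bmp4, whose array-to-array course matched that of Grem1. They were searched on both strands for the NF-κB consensus, the CArG box bound by serum response factor in muscle genes, TGANTCA (the site of AP-1 factors) and GGCGCC (a GC-rich element bound by SMADs). Capitals mark a match.
Gdf10 (GRCm38.p6, chr14:33923337-33923586, plus strand): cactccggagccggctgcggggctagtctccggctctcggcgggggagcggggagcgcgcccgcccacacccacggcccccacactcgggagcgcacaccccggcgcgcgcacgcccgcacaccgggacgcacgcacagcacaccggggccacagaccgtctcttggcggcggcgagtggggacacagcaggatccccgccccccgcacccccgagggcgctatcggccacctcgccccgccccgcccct
Grem1 (GRCm38.p6, chr2:113758649-113758898, minus strand): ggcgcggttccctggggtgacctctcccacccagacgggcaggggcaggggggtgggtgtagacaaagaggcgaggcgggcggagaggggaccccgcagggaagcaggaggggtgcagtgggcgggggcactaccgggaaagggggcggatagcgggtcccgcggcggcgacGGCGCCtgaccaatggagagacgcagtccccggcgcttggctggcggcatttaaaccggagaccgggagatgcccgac
Bmp4 (GRCm38.p6, chr14:46390670-46390919, minus strand): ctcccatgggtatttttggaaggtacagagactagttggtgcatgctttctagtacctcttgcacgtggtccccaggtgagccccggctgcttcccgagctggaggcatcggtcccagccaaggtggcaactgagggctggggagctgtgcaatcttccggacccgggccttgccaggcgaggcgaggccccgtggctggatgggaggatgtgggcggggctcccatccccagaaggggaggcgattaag
The Grem1 window held 1 match, to GGCGCC, which begins 78 bases before the start, and the windows of Gdf10 and Bmp4 held none. Among 32851 mouse promoter windows of the same length 9.59% held GGCGCC, 7.25% the NF-κB consensus, 6.75% TGANTCA and 1.47% the CArG box. The bases are 78.8% G or C for Gdf10, 72.0% for Grem1 and 63.2% for Bmp4.

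Among the ligands, Bmp7, which acts in kidney, eye and gut development, had the most negative change in LPS + 6-MP minus 6-MP. Its values were 8.02, 7.12 and 6.89 in LPS + 6-MP arrays and 7.96, 8.18 and 6.96 in LPS arrays, against 8.995, 7.91 and 7.49 in 6-MP arrays and 7.70, 8.51 and 8.20 in control arrays. The ranges overlapped in both LPS comparisons. The log2 change was -0.79 (SE 0.43, adjusted p = 0.553) for LPS + 6-MP minus 6-MP and -0.43 (SE 0.43, adjusted p = 0.883) for LPS minus control, and -0.61 (95% interval -1.27 to 0.05, adjusted p = 0.357) in the mean of both.
Bmp4, the mesenchymal ligand of the gut wall, had values of 11.73, 12.55 and 13.24 in LPS + 6-MP arrays and 12.49, 11.41 and 12.92 in LPS arrays, against 12.10, 13.67 and 12.80 in 6-MP arrays and 13.31, 12.48 and 12.97 in control arrays. The ranges overlapped in both LPS comparisons of Bmp4, too. The mean LPS change was -0.50 (95% interval -1.24 to 0.24, adjusted p = 0.534).
Bmp5, a ligand closely related to Bmp7, had values of 11.06, 10.01 and 10.01 in LPS + 6-MP arrays and 9.88, 10.26 and 10.02 in LPS arrays, against 10.44, 10.80 and 10.34 in 6-MP arrays and 10.95, 10.67 and 10.00 in control arrays. A single high LPS + 6-MP array held up that group's mean, and without it Bmp5 changed by -0.52 in LPS + 6-MP minus 6-MP, against -0.17 with all arrays (adjusted p = 0.903). The mean LPS change was -0.33 (95% interval -0.80 to 0.14, adjusted p = 0.516).
Bmp2, the close relative of Bmp4, had values of 8.46, 6.43 and 7.10 in LPS + 6-MP arrays and 6.99, 8.19 and 6.96 in LPS arrays, against 8.62, 7.03 and 6.98 in 6-MP arrays and 7.11, 8.27 and 7.26 in control arrays. In each group 1 array was more than 1 log2 unit above the others. The mean LPS change of -0.19 was within its error (95% interval -1.07 to 0.68, adjusted p = 0.881).

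Fst encodes follistatin, which binds activins tightly and some BMPs. Among tested members it had the lowest p in the mean of both LPS comparisons. Its values were 9.87, 10.81 and 11.04 in LPS + 6-MP arrays and 10.98, 10.10 and 11.11 in LPS arrays, against 9.54, 10.41 and 9.81 in 6-MP arrays and 10.57, 9.74 and 10.27 in control arrays. The higher arrays of both LPS groups exceeded all arrays without LPS, and 1 array of each LPS group did not.
Fst was 1.57-fold higher in LPS + 6-MP than in 6-MP arrays (log2 change 0.65, SE 0.37, adjusted p = 0.566) and 1.45-fold higher in LPS than in control arrays (0.54, SE 0.37, adjusted p = 0.783). In the mean of both it was 1.51-fold higher (95% interval 1.02 to 2.23) at an unadjusted p of 0.0399 and an adjusted p of 0.277 in limma, so it did not pass. At an unadjusted p under 0.05 and any fold, 16.2% of all clusters passed in that comparison, and 1 of the 7 tested members.
With the 4 arrays that stand apart as a block in the fit, a choice made after the data were seen, the SE of this Fst change was 0.14 and the adjusted p 0.0169, with the fold still under 2. Over the 22 alternatives its adjusted p ranged from 0.0169 to 0.481 and its log2 change from 0.48 to 0.77. With that block the adjusted p of Bmp7 was 0.0619 and that of Bmp4 0.123, and no member was called. The SE of the mean LPS change with and without the block was 0.31 and 0.85 for Chrdl1, and 0.11 and 0.12 for Nog.
Nog encodes noggin, which blocks Bmp2 and Bmp4 with high affinity, and its values spanned 6.29 to 6.66 in LPS + 6-MP arrays and 6.45 to 6.62 in LPS arrays, against 6.57 to 6.76 in 6-MP arrays and 6.46 to 6.81 in control arrays. All 12 values lay within 1.43-fold and less than 1.1 log2 units above the level of silent receptor genes. The mean LPS change of -0.11 had the narrowest interval of the 9 genes, -0.37 to 0.14, which leaves room for a fold of 0.776 to 1.10 (adjusted p = 0.723).
Chrdl1 encodes chordin-like 1, an antagonist of Bmp4, and had values of 6.45, 9.31 and 9.90 in LPS + 6-MP arrays and 8.86, 6.40 and 9.91 in LPS arrays, against 6.70, 10.57 and 9.07 in 6-MP arrays and 10.71, 7.39 and 9.16 in control arrays. Low arrays were present in all 4 groups. The mean LPS change was -0.46 with the widest interval, -2.32 to 1.39 (adjusted p = 0.861 in limma). That interval holds both a 2-fold lower and a 2-fold higher level of Chrdl1.

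**Figure D2:**
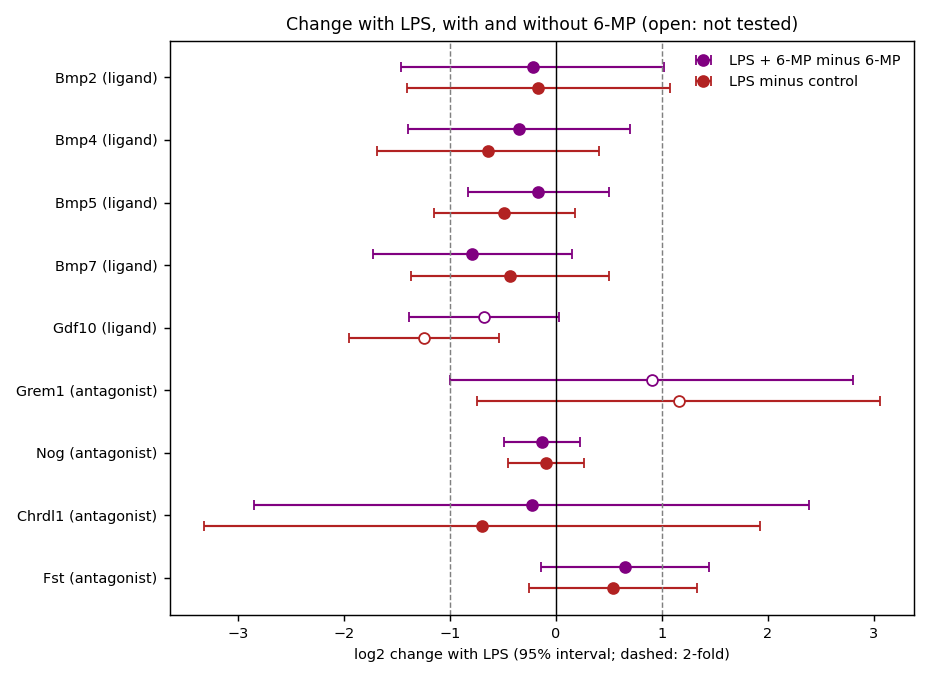
Log2 change with LPS (horizontal axis, 95% intervals from limma) of each member, as LPS + 6-MP minus 6-MP (purple, upper) and LPS minus control (red, lower). The 5 ligand genes lie left of 0 in both, open circles mark Gdf10 (-1.25 in LPS minus control) and Grem1 (1.16), which were chosen for their LPS changes and not tested, and the intervals are narrowest for Nog and widest for Chrdl1.

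6-MP gave no call among the 9 genes, with intervals that were wide for several of them. The log2 differences between 6-MP and control arrays ran from -0.41 (Gdf10) to 0.28 (Grem1), with unadjusted p-values of 0.227 or more in limma, and those between LPS + 6-MP and LPS arrays from -0.36 (Bmp7) to 0.31 (Bmp5), with p-values of 0.333 or more. The 95% interval of the fold for 6-MP against control was narrowest for Nog (0.790 to 1.30) and widest for Chrdl1 (0.131 to 4.99), with 0.325 to 4.54 for Grem1. The intervals of Chrdl1, Grem1 and Bmp2 (0.423 to 2.36) thus hold changes of over 2-fold in either direction. For 6-MP a call needed, as in the methods, a fold of at least 2 with an unadjusted p under 0.05, which 0.063% of clusters reached without LPS and 0.117% with LPS, and 0 of the 9 genes did. No cluster passed with an adjusted p.
The interaction of LPS and 6-MP asks if LPS acted otherwise after 6-MP. Among the 7 tested members its unadjusted p was 0.471 or more, and 0% of all clusters passed at an adjusted p, while 1.95% had an unadjusted p under 0.05 and none of the 7 did. In the order of group means, all neighbouring groups overlapped in all 9 genes, other than LPS + 6-MP and 6-MP in Gdf10.

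The 9 genes differed widely in how much they varied between cultures of 1 group. Chrdl1 spanned 19.9-fold over the 12 arrays and Grem1 11.5-fold, whereas Nog spanned 1.43-fold and Bmp5 2.27-fold. The SD within groups of Chrdl1 (1.82) and Grem1 (1.31) was larger than that of 99.9% and 99.3% of the 15100 clusters above 5.78, and that of Nog (0.15) was larger than that of 6.2%.
Bmp4, Grem1, Chrdl1 and Fst ordered the 3 arrays of a group in the same way in all 4 groups. That order was also the one of a list of 7 smooth muscle genes (Acta2, Myh11, Tagln, Cnn1, Des, Actg2 and Myocd) in 4 of 4 groups, which 1.67% of all clusters matched, and of the macrophage and mesenchyme lists. Bmp2 had the reverse order in 2 of 4 groups and Bmp7 in 3 of 4, and Bmp5, Gdf10 and Nog matched it in none. The list of enteric neuron genes had the reverse order in 4 of 4 groups.
The array that stood apart was the lowest of its group in 4 of 4 groups for Bmp4, Grem1, Chrdl1 and Fst and the highest in 4 of 4 for Bmp2 and Bmp7. Over all clusters 10.4% were lowest and 8.84% highest in this way. Chrdl1 lay at 6.40 to 7.39 in these 4 arrays and at 8.86 to 10.71 in the other 8 arrays, and Bmp4 at 11.41 to 12.48 against 12.49 to 13.67. Bmp2 went the other way, with 8.19 to 8.62 in the 4 arrays and 6.43 to 7.26 in the others.
The smooth muscle list averaged 12.77 to 13.32 in the 4 arrays and 13.91 to 14.78 in the other 8, and the macrophage list 8.91 to 9.67 and 9.71 to 10.55. The epithelial list (Epcam, Cdh1, Krt8, Krt18, Krt20, Vil1 and Cdx2) averaged 13.96 to 14.23 in the 4 arrays and 12.65 to 13.71 in the others, and the neuronal list 11.35 to 11.80 and 10.35 to 11.12. The interferon-stimulated list was highest of its group in the array that stood apart in 4 of 4 groups, at 8.63 to 12.31 in the 4 arrays and 6.17 to 11.25 in the others. In such bulk cultures fewer cells of a type and less RNA per cell cannot be told apart, and the part of cell makeup or of the interferon-stimulated genes in the course of the 9 genes was not tested.

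**Figure D3:**
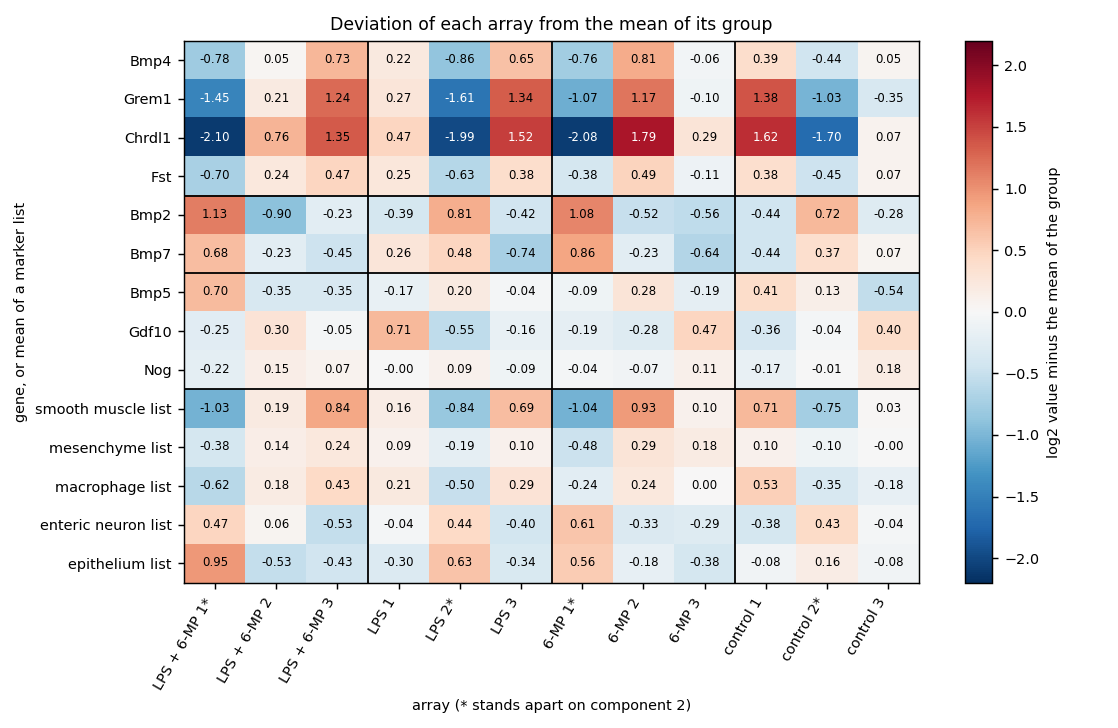
Deviation of each array (columns, by group, with an asterisk on the 4 arrays that stand apart) from its group's mean log2 value, for the 9 genes and 5 marker lists (rows), with red above and blue below the mean. Bmp4, Grem1, Chrdl1 and Fst are blue in the 4 marked arrays, as are the smooth muscle and macrophage lists, and Bmp2 and Bmp7 are red, as are the neuronal and epithelial lists.

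The mean LPS change had the same direction in both sets of arrays for all members but Bmp5. Grem1 changed by 1.27 among the other 8 arrays and by 0.55 among the 4 that stood apart, Fst by 0.72 and 0.34, and Gdf10 by -0.82 and -1.25. Bmp5 changed by -0.54 and 0.11. The directions of Grem1 and Gdf10 were fixed over all arrays by their choice and lend no support. The set of 4 holds 1 array per group, so its values have no replicate.
The epithelial list was below 0 with LPS in 7 of 7 genes in both LPS comparisons, with a median log2 change of -0.46 in LPS + 6-MP minus 6-MP and -0.36 in LPS minus control and none of its genes called. Its mean ranged from 12.65 to 14.14 in LPS + 6-MP and 13.09 to 14.06 in LPS arrays, and from 13.29 to 14.23 in 6-MP and 13.71 to 13.96 in control arrays. The smooth muscle list was above 0 in 5 of 7 genes in both, with medians of 0.20 and 0.05. Tcf21, from the mesenchyme list, was called lower in both, at 9.67 in LPS + 6-MP against 10.69 in 6-MP arrays (adjusted p = 0.0168 in limma) and 9.38 in LPS against 10.73 in control arrays (adjusted p = 0.00212). The other 5 mesenchyme genes were not called. Of all 6, 3 were above 0 in LPS + 6-MP minus 6-MP (median 0.01) and 1 in LPS minus control (median -0.12). The glial marker Fabp7 was called lower in LPS + 6-MP minus 6-MP (8.33 against 10.02, adjusted p = 0.0436 in limma) but not in LPS minus control (9.32 against 10.65, adjusted p = 0.146). The glial list did not share 1 direction. Of its 5 measured genes 2 were above 0 and 3 below in LPS + 6-MP minus 6-MP, and 3 above and 2 below in LPS minus control. The macrophage list had medians of -0.34 and -0.70, with 2 and 5 of 6 genes at an unadjusted p under 0.05 in limma and none called. Over all clusters 11.2% and 9.01% had such a p. The signs were mixed, since 4 macrophage genes were below 0 and 2, Adgre1 and Ptprc, above it. In the mean of both comparisons the complement gene C1qa of that list was called lower (-1.14). The part of these lists in the LPS values of the 9 genes was not tested.

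For each member the 3 genes with the most similar log2 values over the 12 arrays were taken from 13479 named genes above 5.78. The arrays share the difference between the 4 that stand apart and the rest, so r is also given over the other 8 arrays, and no p is attached. These 8 are among the 12 used to pick the genes, so their r is no separate check. Treatment differences also enter r, among them the LPS changes for which Gdf10 and Grem1 were chosen. Chrdl1 went most closely with P4ha3, a collagen prolyl hydroxylase gene (Pearson r = 0.99, and 0.94 over the 8), Mylk, the myosin light chain kinase gene of smooth muscle (0.98 and 0.87), and Tspan2 (0.98 and 0.95). Grem1 went with Zfp57 (0.98 and 0.96), Fhl5 (0.96 and 0.97) and Schip1 (0.96 and 0.96). Bmp4 went with Hpse2, Prss23 and the matrix protein gene Tgfbi (0.98 each, and 0.97 each over the 8), and Fst with the integrin gene Itga9 (0.97 and 0.94), Ldlrad4 (0.96 and 0.95) and Rasa3 (0.96 and 0.98).
Bmp7 was most like Slc5a7, the choline transporter gene of cholinergic neurons (0.97 and 0.94), Prr15l (0.97 and 0.95) and Pex16 (0.95 and 0.94). Bmp2 was most like Gpank1 (0.97 and 0.81), the angiogenic factor gene Vegfa (0.97 and 0.72) and Rnf186 (0.97 and 0.82). Gdf10 went with Ptgr1 (0.94 and 0.95), Nme3 (0.93 and 0.96) and Rfc2 (0.91 and 0.88), and Bmp5 with Cks2 (0.92 and 0.96), Lrat (0.89 and 0.88) and 4932438A13Rik (0.88 and 0.86). Nog, with its narrow range, reached 0.91 for Maz (0.84 over the 8), 0.89 for Adgra3 (0.92) and 0.88 for Sel1l (0.91).

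Around the 9 genes, 7 lists of other ligands, activins, antagonists, receptors, SMADs, targets and processing proteases held 59 genes, of which 58 were found on the array and 46 lay above 5.78. In LPS against control 0 of them were called and in LPS + 6-MP against 6-MP 0, with 7 and 6 at an unadjusted p under 0.05, which 9.01% and 11.2% of all clusters had. In the mean of both LPS comparisons 1 was called, at a background of 2.08%, and 13 of 58 (22.4%) had an unadjusted p under 0.05, beside 16.2% of all clusters.
The called gene was Sostdc1, which encodes a secreted antagonist of BMP and Wnt ligands. Its values were 8.49, 8.30 and 7.33 in LPS + 6-MP arrays and 8.33, 9.06 and 8.16 in LPS arrays, against 7.20, 7.28 and 7.01 in 6-MP arrays and 7.10, 7.03 and 7.53 in control arrays. LPS + 6-MP arrays lay wholly above 6-MP arrays, as in 7.13% of all clusters, and LPS arrays wholly above control arrays, as in 6.88%. The mean log2 change was 1.08 (SE 0.22, adjusted p = 0.0131 in limma), with 1.30 (adjusted p = 0.061) in LPS minus control and 0.87 (adjusted p = 0.278) in LPS + 6-MP minus 6-MP.
The Sostdc1 call held in 17 of 20 alternatives. Without LPS + 6-MP 1 its mean change was 0.97 and without LPS 2 0.95, under a fold of 2, and without all 4 arrays that stand apart it was 0.80 with an adjusted p of 0.0851, which is the highest over the 20 alternatives (lowest 0.00185). Among the other 10 measured antagonist genes none was called. Bmper, whose product binds BMPs in the matrix, had a mean change of 0.74 (adjusted p = 0.26) and the follistatin-like gene Fstl1 0.50 (adjusted p = 0.728).
Of 10 BMP target and feedback genes 8 were below 0 in the mean of both LPS comparisons, and 0 were called. Their median there was -0.07 beside -0.03 over all clusters, of which 44.2% were above 0. Below 0 were 7 of the 10 genes in LPS minus control and 6 in LPS + 6-MP minus 6-MP. Id4, an inhibitor of basic helix-loop-helix factors, had values of 8.78, 9.004 and 9.69 in LPS + 6-MP arrays and 9.43, 9.14 and 9.18 in LPS arrays, against 9.96, 10.50 and 10.08 in 6-MP arrays and 10.19, 9.86 and 9.37 in control arrays. LPS + 6-MP arrays lay wholly below 6-MP arrays, as in 7.64% of all clusters, and LPS and control arrays overlapped. Its mean log2 change was -0.79 (SE 0.19, adjusted p = 0.0379), under a fold of 2 and thus not called, and the adjusted p was under 0.05 in 8 of 20 alternatives (range 0.0122 to 0.137). The pseudoreceptor gene Bambi changed by -0.53 (adjusted p = 0.165) and Id2 by -0.41 (adjusted p = 0.383).
Among 4 SMAD genes 0 were called, and in the mean of both LPS comparisons 3 were above 0 and 1, Smad9, below it. Smad9 had a mean change of -0.57 (adjusted p = 0.0804) and Smad1 of 0.47 (adjusted p = 0.111), while the shared partner Smad4 had 0.15 (adjusted p = 0.558). Of 12 receptor and co-receptor genes 0 were called, 6 were above 0 and 6 below it, with Eng, the co-receptor endoglin, at 0.55 (adjusted p = 0.291), the activin receptor gene Acvr1b at 0.43 (adjusted p = 0.47) and Acvr2b at -0.44 (adjusted p = 0.26).
Of 10 other BMP and GDF ligand genes 6 lay at or under 5.78 and 0 were called. Bmp3 (0.17), Bmp6 (0.10) and Gdf6 (-0.08) had mean changes with adjusted p-values of 0.611 or more. Among 5 genes listed as the activin group 0 were called, with mean changes of 0.65 for Inhba (adjusted p = 0.316), -0.29 for Inha (adjusted p = 0.519) and -0.12 for Gdf11 (adjusted p = 0.817).
Of 6 genes of proteases that mature ligands or cleave chordin, 0 were called with LPS. Tll2 had a mean change of 0.51 (adjusted p = 0.102), Bmp1 of 0.45 (adjusted p = 0.501) and the convertase gene Pcsk5 of -0.50 (adjusted p = 0.59). Tll1, a chordin-cleaving metalloprotease gene, was the 1 gene of the 58 that met the unadjusted rule for 6-MP under LPS, beside 0.117% of all clusters. Its values were 8.95, 9.43 and 9.99 in LPS + 6-MP arrays, against 8.44, 7.77 and 8.92 in LPS arrays, with no overlap, as in 4.74% of all clusters that lay wholly higher (log2 change 1.08, SE 0.38, unadjusted p = 0.0135, adjusted p = 1 in limma). That call was lost without the third LPS + 6-MP array (limma, unadjusted p = 0.066) and without the second LPS array (limma, unadjusted p = 0.068).

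**Figure D4:**
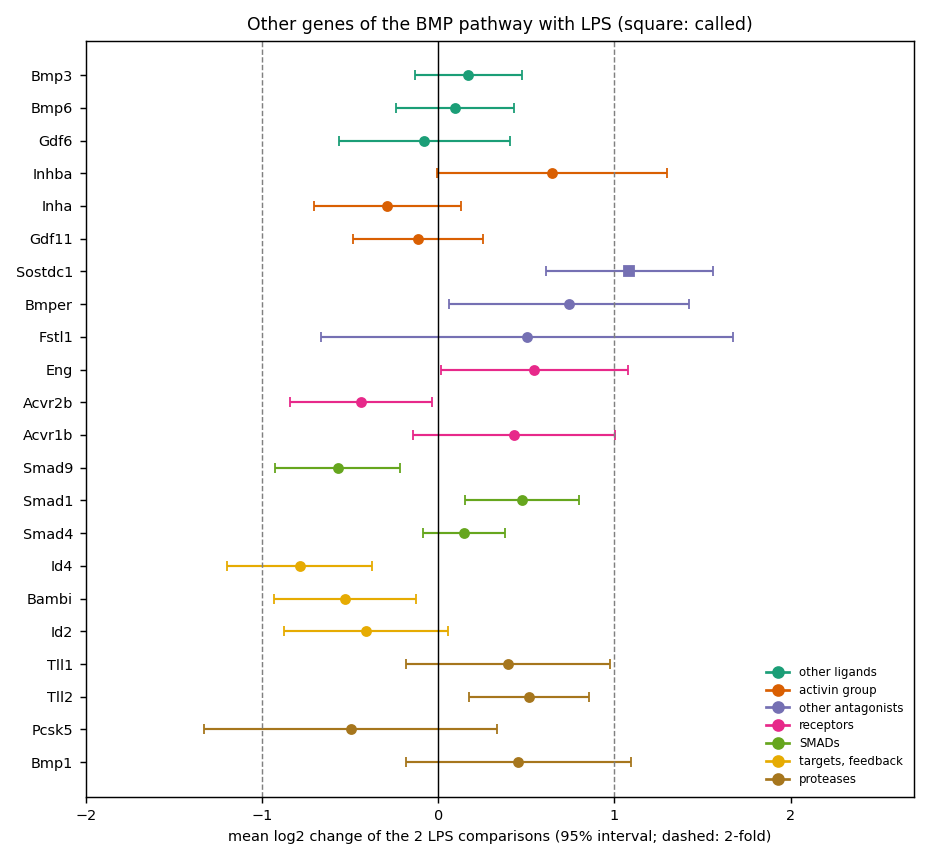
Mean log2 change of both LPS comparisons (horizontal axis, 95% intervals from limma) of 22 other pathway genes (rows), coloured by role, with the called gene as a square. Sostdc1 (1.08) lies to the right of the 2-fold line, and Id4 (-0.79) is the lowest of the 22.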

How the data were processed

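The authors ran 12 Clariom S arrays on 100 ng of total RNA each, used the Transcriptome Analysis Console, and deposited a log2 value of every transcript cluster for each array. Normalization, summarisation and genome build are not given in the sources used here. Of 28846 entries 6640 controls were left out. Array medians were 7.41 to 7.53, arrays correlated at 0.970 to 0.994, and no 2 arrays were identical. Symbols came from the platform's annotation (1 symbol for 19572 clusters). Groups follow the treatment in the labels.
With R 4.3.3, limma 3.58.1 was fitted to the means of 4 groups without a filter (8 residual and 4.25 prior degrees of freedom), with Benjamini-Hochberg adjustment over 22206 clusters, and tested on simulated data. The smallest exact permutation p for 3 against 3 arrays is 0.1, so p-values come from limma. Named are all 9 members, pathway genes called in any comparison, up to 3 per list with the largest mean LPS change, and 3 most similar genes per member. Members and lists were chosen with earlier results of these data known. Grem1 and Gdf10 were planned to be tested in LPS + 6-MP minus 6-MP, but were given no test there, since it may have served to choose them. Alternatives were other samples in the fit, blocks, priors, scalings, filters, thresholds, the methods' t-test and leaving out arrays.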

Additional observations from a re-analysis of the deposited data

How the results depend on the processing

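The number of called members was 0 in all 6 comparisons and in 116 of 116 recomputed counts, from which Grem1 and Gdf10 were left out in the LPS comparisons and the interaction because they were chosen for their LPS changes. Of 594 recomputed single values 20 turned their sign, each on leaving out 1 array and none under another alternative. Over the arrays left out, Bmp2 ranged from -0.57 to 0.19 in LPS minus control, -0.78 to 0.32 in LPS + 6-MP minus 6-MP and -0.48 to 0.077 in their mean, and Chrdl1 from -1.55 to 0.29, -1.27 to 0.82 and -0.99 to 0.061. In LPS + 6-MP minus 6-MP, Bmp4 ranged from -0.73 to 0.059 and Bmp5 from -0.52 to 0.010. Grem1 ranged from -0.30 to 0.97 in 6-MP minus control and Bmp5 from -0.041 to 0.49 in LPS + 6-MP minus LPS. In LPS minus control Grem1 ranged from 0.49 to 1.96 and Gdf10 from -1.60 to -0.97, with signs that follow from their choice.
Replicate numbers did not pair the arrays: 7 of 18 same-numbered pairs had a correlation of deviations over 0.1 (-0.54 to 0.69), and the same number was the closest in 8 of 36 cases. With the replicate block 0 members were called, as with the methods' t-test, which was run on the comparisons of 2 groups. A block for the 4 arrays that stand apart, added after the data had been seen, also left 0 called members. Each symbol had 1 cluster, so another choice of cluster was not possible. Background can be read only from the deposited values, where Nog lies near the level of silent genes. The lower Gdf10 values with LPS, such as 5.99 and 6.38 in LPS arrays, lie near it as well.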
